A study of Mus musculus with 39 samples.

Results

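The colon of BALB/cJ mice was compared with the duodenum/jejunum of the same animals, the proximal small intestine pooled under a single label. BALB/cJ is an inbred albino laboratory strain, and each of 6 mice gave 1 bulk RNA library of each tissue, so the comparison rests on 6 pairs of libraries. It covered the 15671 genes that reached 1 TPM in at least 6 of the 12 libraries, of 34574 named genes in the tables. TPM gives each gene's share of a library's transcripts, corrected for transcript length and scaled to a fixed total. The whole study sequenced total RNA of colon, ileum and duodenum/jejunum from 6 BALB/cJ and 7 C57BL/6J mice, 39 libraries in all. The labels name strain, tissue and mouse, and no genotype change, treatment or agent. Throughout, TPM values are means ± SD over the 6 mice of a tissue unless another quantity is named, and a difference is colon minus duodenum/jejunum on the log2(TPM + 1) scale, which understates the change of genes below a few TPM.

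The proximal small intestine digests and absorbs most fat, sugar, peptides, iron, calcium and vitamins, through tall enterocytes on villi, and Paneth cells at the base of its crypts secrete antimicrobial peptides. The colon has no villi and normally no Paneth cells. It holds a dense microbiota behind a thick mucus layer made by goblet cells, and its epithelium recovers salt and water and takes up the short-chain fatty acids that bacteria make. Position along the gut is set in development by Hox, GATA and CDX factors, many of which stay on in the adult wall.

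The libraries matched their tissue labels, with a few that stood apart. The colon markers Car1, Hoxb13 and Aqp8 and the proximal markers Gata4, Tmprss15, Fabp1 and Apoa4 did not overlap between the tissues. Total TPM over all entries ranged from 982782 to 990600 in colon and from 990532 to 994722 in duodenum/jejunum. The 100 most abundant entries took 28.5% to 30.4% of TPM in colon and 32.5% to 37.5% in duodenum/jejunum. The depth in reads is unknown, because the tables hold no counts. The duodenum/jejunum library of mouse 5 lacked the glandular transcripts of the other 5. Its Gkn3, a gastrokine of gastric and Brunner gland cells, was at 1.54 TPM against 268 to 716 TPM in the others, and the trefoil peptide gene Tff2 was listed at 0 there. Pdx1, a transcription factor of the most proximal intestine, was at 2.003 TPM in that library against 7.32 to 18.4 TPM in the other 5, and the ileal bile acid-binding protein gene Fabp6 was at 95.97 TPM against 2.99 to 24.04 TPM. Pancreatic transcripts were uneven in both tissues. Pnlip, pancreatic lipase, reached 109.6 and 42.3 TPM in the colon libraries of mice 3 and 5 and lay at 0.087 to 1.32 TPM in the other 4. In duodenum/jejunum it reached 661, 43.7 and 124 TPM in mice 1, 3 and 6 and lay at 0.0371 to 0.69 TPM in the other 3. Adipocyte and muscle transcripts also differed between the tissues and are given with the wall genes.

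By limma's moderated test with the mouse as a block, 10260 genes differed at a Benjamini-Hochberg adjusted p under 0.05 and are referred to as called, which is 65.5% of the genes tested. The p-values measure the spread between these 6 mice. Of the called genes, 7879 were higher in colon (50.3%) and 2381 were lower (15.2%), and 6937 genes (44.3%) had no overlap between the 6 colon and the 6 duodenum/jejunum libraries, 35.2% of all genes tested on the higher and 9.06% on the lower side. With a difference of at least 1 on the log2 scale as well, 3250 genes were called (20.7%), 2295 higher (14.6%) and 955 lower (6.09%) in colon. The median of all genes tested lay 0.32 above 0 in colon. Rescaling the libraries by median-of-ratios (RLE) size factors moved that median to -0.011 and the split to 4569 higher (29.2%) and 4620 lower (29.5%), 58.6% in all. No gene was called in opposite directions by the 2 scalings, and 2399 of the 2-fold calls held under both in the same direction. Differences below should therefore be read against a median of 0.32, and a gene group is said to be higher or lower only where both scalings gave that balance, unless the text says otherwise. Of the genes tested, 304 passed the filter through colon alone and 148 through duodenum/jejunum alone, with no library of the other tissue at 1 TPM, so the filter set their direction. These include 12 and 1 of the 25 Hox genes tested, 6 and 6 of the 43 P450 genes and 5 or fewer of any other list. The same holds for every tested gene named below with no library of 1 of the tissues at 1 TPM, whether or not it is repeated there. In bulk tissue, fewer cells of a type and less RNA per cell cannot be told apart.

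**Figure D1:**
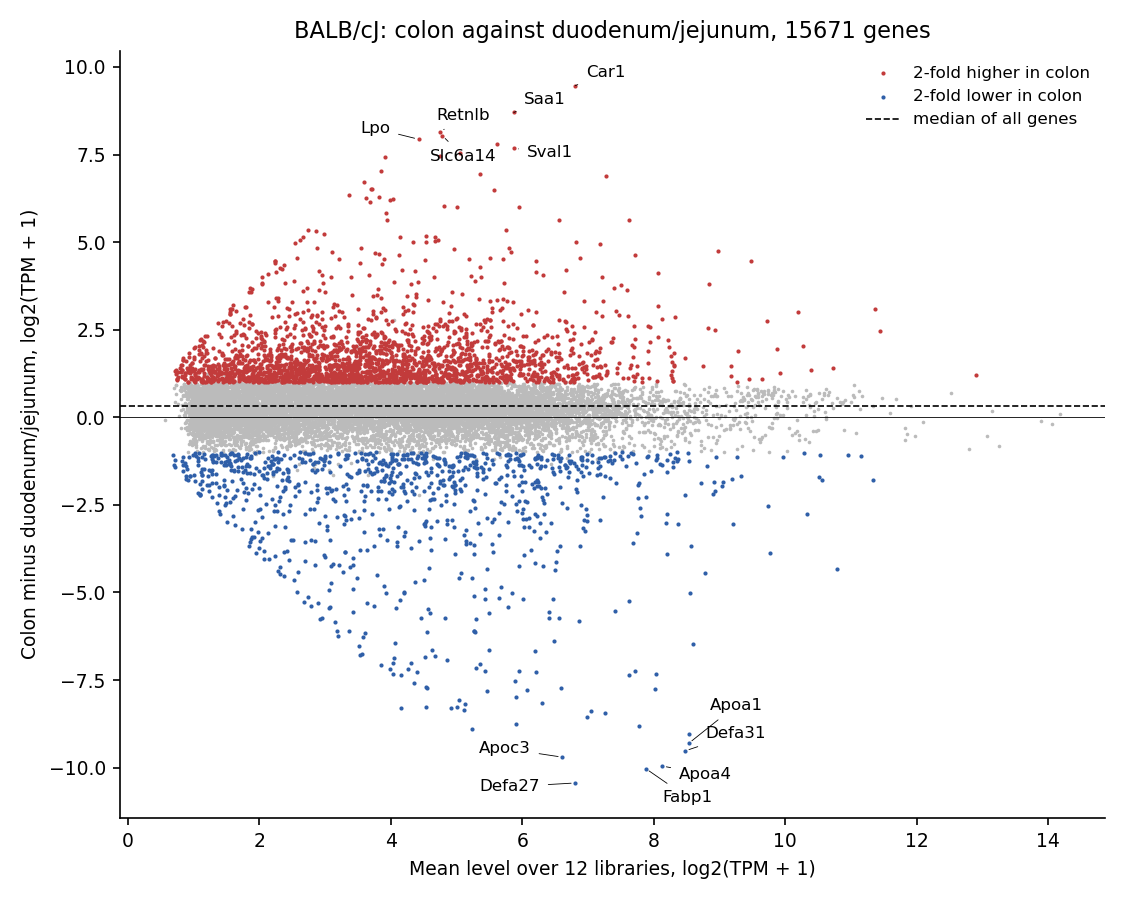
Difference between colon and duodenum/jejunum (log2(TPM + 1), vertical axis) against the mean level of each of the 15671 genes over the 12 BALB/cJ libraries (log2(TPM + 1), horizontal axis). Red points are called 2-fold higher in colon, blue points 2-fold lower, grey points neither, the dashed line is the median of all genes, 0.32, and the labels mark 6 of the named genes with the largest differences in each direction.

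The genes with the largest excess in colon encoded a carbonic anhydrase, an acute-phase protein, a goblet cell peptide, an amino acid transporter and a peroxidase, and those with the largest deficit encoded lipid carriers, brush border sugar enzymes and Paneth cell defensins. Car1, a cytosolic carbonic anhydrase (chromosome 3, 14766216 to 14808368, - strand, GRCm38), had 1819, 3162 and 4016 TPM as lowest, median and highest value in colon, against 1.66, 2.17 and 15.1 TPM in duodenum/jejunum. Its difference of 9.47 (SE 0.33, limma adjusted p = 9.55e-09) was the largest in the colon's favour. Saa1, serum amyloid A, which binds retinol and has close relatives that can share its reads, had 937, 1303 and 1319.8 TPM in colon against 1.25, 1.62 and 3.93 TPM in duodenum/jejunum. The tissues did not overlap for either gene. Slc6a14, a sodium- and chloride-coupled carrier of neutral and cationic amino acids, averaged 447 ± 30.2 TPM in colon and 0.793 ± 0.756 TPM in duodenum/jejunum (difference 8.04). Lpo, lactoperoxidase, averaged 336 ± 28.3 TPM in colon and 0.425 ± 0.456 TPM in duodenum/jejunum (difference 7.94). In the other direction, Fabp1, the liver-type fatty acid-binding protein that is also abundant in proximal enterocytes, had 3.02, 5.87 and 14.3 TPM in colon against 6354, 7535 and 9418 TPM in duodenum/jejunum. Its difference was -10.03 (SE 0.22, adjusted p = 6.59e-10), and Apoa4, an apolipoprotein of chylomicrons, followed with -9.96. Only Defa27, among the near-identical alpha-defensins, fell further, at 3.47 ± 4.16 TPM in colon and 4362 ± 1560.5 TPM in duodenum/jejunum (difference -10.44). Of the other genes named by the same rule, Sval1, Hao2, Cyp2d34 and Sycn were high in colon. Sval1, seminal vesicle antigen-like 1, averaged 845 ± 93.4 TPM in colon and 3.29 ± 1.42 TPM in duodenum/jejunum. Hao2, a peroxisomal hydroxyacid oxidase, averaged 358 ± 37.8 TPM in colon and 1.12 ± 0.71 TPM in duodenum/jejunum. Sycn, syncollin, a pancreatic granule protein, was at 1399.6 to 2126 TPM in all 6 colon libraries, the 4 with little Pnlip included, and at 1.43 to 229 TPM in duodenum/jejunum.

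The promoters of the leading genes are shown because the regional factors described next are known to bind gut promoters, and their recognition letters can be looked for directly. Each runs from 250 bases before to 50 bases after the RefSeq start (GRCm38.p6), 300 bases on the gene's strand, for the 3 genes with the largest difference in each direction that have an entry, and capitals mark a match to any of 4 motifs on either strand: AGATAA for GATA factors, CAAAGTCCA for HNF4, GTTAAT for HNF1 and CAATAAA for CDX and posterior HOX factors. No motif contains another, but matches to different motifs can share letters at their ends. Entries were found for 10906 of the 15671 genes tested, and the first entry of a gene was used. For Lpo that entry lies inside the gene as annotated in GENCODE M21 (87806428 to 87828289, - strand). The stretch at the outer end of Lpo was not searched.
Saa1 (chr7:46742931-46743230, - strand): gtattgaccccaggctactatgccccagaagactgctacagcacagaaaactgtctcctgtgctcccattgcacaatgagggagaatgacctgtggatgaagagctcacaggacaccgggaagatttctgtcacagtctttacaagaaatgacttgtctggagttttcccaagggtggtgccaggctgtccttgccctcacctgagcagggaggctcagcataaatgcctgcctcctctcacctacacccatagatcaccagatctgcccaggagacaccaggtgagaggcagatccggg
Slc6a14 (chrX:21714650-21714949, + strand): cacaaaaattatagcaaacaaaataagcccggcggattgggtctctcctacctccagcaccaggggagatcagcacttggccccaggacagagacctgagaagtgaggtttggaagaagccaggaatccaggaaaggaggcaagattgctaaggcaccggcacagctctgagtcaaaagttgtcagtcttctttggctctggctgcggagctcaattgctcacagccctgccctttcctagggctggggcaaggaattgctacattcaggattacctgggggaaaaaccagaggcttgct
Lpo (chr11:87826065-87826364, - strand): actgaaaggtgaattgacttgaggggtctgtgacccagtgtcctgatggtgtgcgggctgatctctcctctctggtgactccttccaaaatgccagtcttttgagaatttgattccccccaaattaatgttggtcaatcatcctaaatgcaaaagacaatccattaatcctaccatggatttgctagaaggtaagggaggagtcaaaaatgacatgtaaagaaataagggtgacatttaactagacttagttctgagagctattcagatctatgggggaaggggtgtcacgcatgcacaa
Fabp1 (chr6:71199629-71199928, + strand): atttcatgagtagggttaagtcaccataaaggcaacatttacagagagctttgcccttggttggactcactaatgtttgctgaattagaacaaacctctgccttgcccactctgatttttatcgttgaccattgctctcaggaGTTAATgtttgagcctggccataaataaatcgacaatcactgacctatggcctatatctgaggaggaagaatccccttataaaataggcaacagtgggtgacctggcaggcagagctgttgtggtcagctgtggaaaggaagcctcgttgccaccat
Apoa4 (chr9:46240594-46240893, + strand): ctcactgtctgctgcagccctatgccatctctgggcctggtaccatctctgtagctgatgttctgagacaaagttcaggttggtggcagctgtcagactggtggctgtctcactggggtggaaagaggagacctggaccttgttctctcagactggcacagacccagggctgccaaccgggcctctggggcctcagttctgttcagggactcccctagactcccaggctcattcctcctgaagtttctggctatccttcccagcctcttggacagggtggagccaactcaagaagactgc
Defa31 (chr8:21191323-21191622, + strand): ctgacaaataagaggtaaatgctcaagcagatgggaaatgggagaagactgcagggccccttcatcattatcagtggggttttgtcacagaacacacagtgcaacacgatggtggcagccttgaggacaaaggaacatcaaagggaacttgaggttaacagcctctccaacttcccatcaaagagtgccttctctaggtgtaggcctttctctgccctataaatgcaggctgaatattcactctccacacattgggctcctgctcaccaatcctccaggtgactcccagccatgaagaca
Among these 6, only the Fabp1 promoter held a match, the HNF1 letters GTTAAT at position -107 from the start. Over all genes, the HNF4 letters were in 2.52% of the promoters of genes called 2-fold lower in colon (16 of 634), in 0.379% of those called 2-fold higher (6 of 1584) and in 0.523% of all promoters. The GATA letters were in 13.6%, 6.57% and 7.13% of the same groups, and the HNF1 letters in 9.31%, 4.99% and 4.79%. The CDX and posterior HOX letters were in 4.57%, 2.53% and 2.84%. A match is only a run of letters, and binding was not measured.

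The regional transcription factors divided into a proximal and a distal group. Of 29 tested, 12 were higher and 14 lower in colon, against 50.3% and 15.2% of all genes. Of the 29, 4 passed the filter through duodenum/jejunum alone, Gata4 and Pdx1 among them, so the filter set their direction. Gata4, a zinc finger factor that maintains jejunal identity, averaged 0.361 ± 0.1 TPM in colon and 106 ± 19.7 TPM in duodenum/jejunum, with 77.4 TPM as its lowest duodenum/jejunum value. Gata5 was at 0.303 ± 0.0541 TPM in colon and 27.3 ± 6.42 TPM in duodenum/jejunum, while Gata6, which is used along the whole gut, was at 19.1 ± 1.38 TPM in colon and 35.2 ± 3.97 TPM in duodenum/jejunum. Onecut2, a homeodomain factor, was at 0.132 ± 0.0479 TPM in colon and 21.8 ± 6.47 TPM in duodenum/jejunum, and Creb3l3, a membrane-bound factor of lipid metabolism, at 4.52 ± 1.604 TPM in colon and 293 ± 42.1 TPM in duodenum/jejunum. Of the 2 HNF4 genes, Hnf4g averaged 18.2 ± 2.25 TPM in colon and 268 ± 71.6 TPM in duodenum/jejunum (difference -3.77), whereas Hnf4a averaged 249.8 ± 17.6 and 227 ± 43.4 TPM in the same order and was not called (0.15, adjusted p = 0.205). Pdx1 averaged 0.827 ± 0.125 TPM in colon and 10.8 ± 5.74 TPM in duodenum/jejunum, and its difference was -2.48 with all mice and -2.81 without mouse 5. On the colonic side, Cdx1, a caudal-type homeodomain factor of the intestinal epithelium, had 113, 135 and 147 TPM in colon against 30.7, 38.4 and 44.9 TPM in duodenum/jejunum, with no overlap (difference 1.78, adjusted p = 1.88e-07). The forkhead genes Foxa1, Foxa2 and Foxa3 were all higher in colon, by 1.94, 2.59 and 1.904.

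Hox genes were higher in colon, and those of the most posterior groups were near 0 in duodenum/jejunum. Of 39 genes, 25 passed the filter, 23 of these were higher in colon and 1, Hoxc6, was lower, with a median difference of 2.02. Of the 25, 12 passed through colon alone and 1 through duodenum/jejunum alone, so the filter set their direction. The counts and the median include them and are in part set by the filter. The 12 genes of paralogue groups 1 to 4 summed to 35.7 TPM in colon and 13.1 TPM in duodenum/jejunum over the group means. The 16 genes of groups 9 to 13 summed to 292 TPM in colon and 1.67 TPM in duodenum/jejunum. All 10 members of groups 9 to 13 that passed the filter did so through colon alone, so that they were higher there was set by the filter and adds nothing to these sums. Hoxb13, the most posterior member of the B cluster, led with 107, 127 and 137 TPM in colon against 0, 0.13 and 0.715 TPM in duodenum/jejunum. Hoxa9 was at 37.03 ± 4.11 TPM in colon and 0.0743 ± 0.0655 TPM in duodenum/jejunum, Hoxa10 at 34.5 ± 2.51 TPM in colon and 0.0718 ± 0.0593 TPM in duodenum/jejunum, Hoxa13 at 32.5 ± 6.99 TPM in colon and 0.0466 ± 0.041 TPM in duodenum/jejunum and Hoxd13 at 21.05 ± 2.83 TPM in colon and 0.0246 ± 0.0135 TPM in duodenum/jejunum. The C cluster went the other way at low levels: Hoxc6 averaged 0.431 ± 0.319 TPM in colon and 2.21 ± 0.799 TPM in duodenum/jejunum (difference -1.16), and Hoxc4, Hoxc5 and Hoxc8 did not pass the filter. Their means were 0.295 ± 0.0841, 0.175 ± 0.224 and 0.512 ± 0.157 TPM in colon and 1.44 ± 0.509, 1.02 ± 0.513 and 1.14 ± 0.434 TPM in duodenum/jejunum in the same order. Summed per library, the Hox genes took 386 ± 29.2 TPM in colon and 26.1 ± 6.07 TPM in duodenum/jejunum, higher in colon in 6 of 6 mice (exact permutation test over the 64 sign changes, 2-sided p = 0.0312, adjusted over 8 sums 0.0625). That p is the smallest 6 pairs allow.

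**Figure D2:**
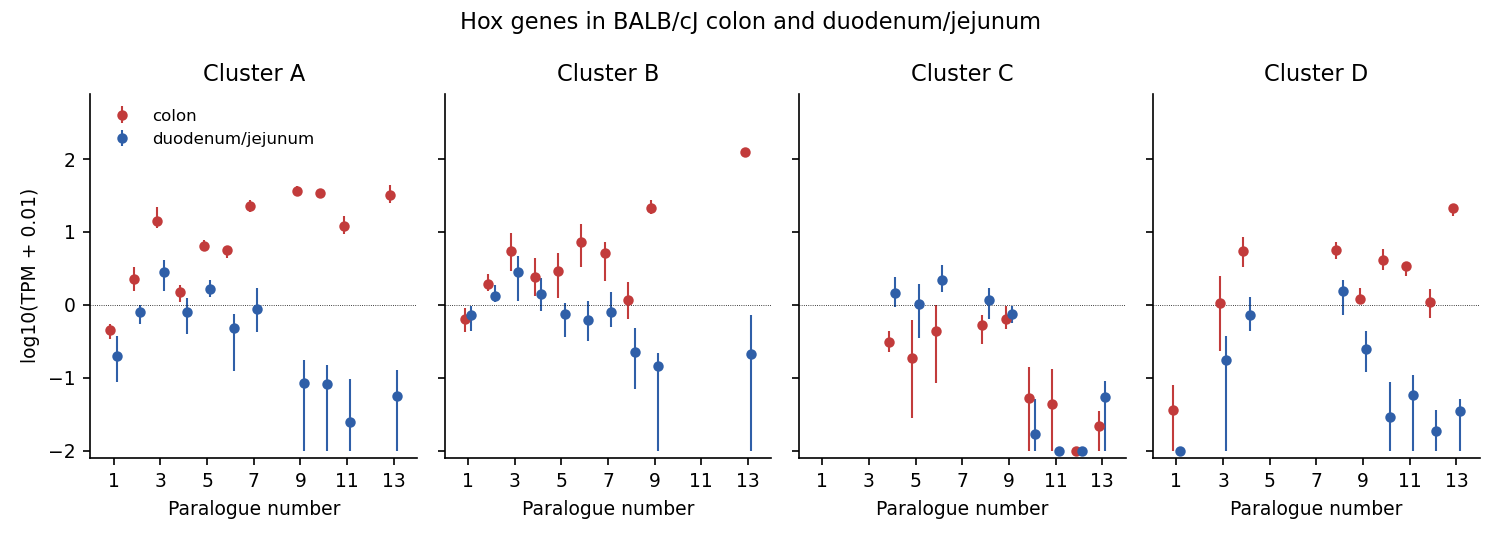
TPM of the Hox genes (mean of 6 libraries per tissue, vertical axis, log10 of TPM + 0.01) by paralogue number (horizontal axis), 1 panel per cluster, with colon in red and duodenum/jejunum in blue and bars for the lowest and highest library. From paralogue 9 on, colon lies above duodenum/jejunum in clusters A, B and D, while every mean of the C cluster is below 1 TPM in colon.

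Genes of fat absorption were lower in colon almost throughout. Of 27 tested, 23 were lower, 2 higher and 2 not called, with a median difference of -4.33. Mttp, the transfer protein that loads lipid onto apolipoprotein B, had 2.79, 3.49 and 5.35 TPM in colon against 836, 1056 and 1119.9 TPM in duodenum/jejunum. Its partner Apob averaged 3.72 ± 1.06 TPM in colon and 1348 ± 239 TPM in duodenum/jejunum. The tissues were far apart with no overlap for both genes. The exchangeable apolipoproteins of chylomicrons were among the most abundant transcripts of duodenum/jejunum, with Apoa1 at 15.2 ± 7.78 TPM in colon and 9414 ± 1422 TPM in duodenum/jejunum and Apoc3 at 2.898 ± 2.402 TPM in colon and 2866 ± 637 TPM in duodenum/jejunum. Mogat2, which re-esterifies absorbed monoacylglycerol, was at 1.47 ± 0.245 TPM in colon and 247 ± 26.6 TPM in duodenum/jejunum, while Dgat1 and Dgat2, which complete triglyceride synthesis, kept 58.2 ± 2.36 and 43.7 ± 2.91 TPM in colon against 718 ± 72.9 and 350.1 ± 80.1 TPM in duodenum/jejunum. Fabp2, the intestinal fatty acid-binding protein, also kept a sizeable level, 397 ± 53.7 TPM in colon and 8284 ± 2847 TPM in duodenum/jejunum. Only Acsl3, a long-chain acyl-CoA synthetase (167 ± 17.5 TPM in colon, 15.4 ± 2.15 TPM in duodenum/jejunum, difference 3.37), and Plin2, a lipid droplet coat protein (156 ± 10.9 and 89.95 ± 7.85 TPM, 0.79), were higher in colon.

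All 15 tested genes of sugar digestion and transport were lower in colon, with a median of -4.99. Of the 15, 4 passed the filter through duodenum/jejunum alone, Treh, Slc2a2 and Slc2a7 among them, so the filter set their direction. Lct, lactase, averaged 0.782 ± 0.49 TPM in colon and 840.3 ± 169.9 TPM in duodenum/jejunum, and Sis, sucrase-isomaltase, 7.6 ± 2.897 TPM in colon and 2929 ± 663 TPM in duodenum/jejunum. Treh, trehalase, was at 0.398 ± 0.152 TPM in colon and 232 ± 53.7 TPM in duodenum/jejunum. Their relative Mgam, maltase-glucoamylase, kept 185, 235 and 261 TPM in colon, against 2539.8, 3438 and 3979 TPM in duodenum/jejunum. So did Slc5a1, the sodium-glucose cotransporter SGLT1, with 75.3 ± 2.02 TPM in colon and 1149.5 ± 139 TPM in duodenum/jejunum. The facilitative hexose carriers were nearly silent in colon by comparison, with Slc2a2 (GLUT2) at 0.335 ± 0.282 TPM in colon and 411 ± 55.2 TPM in duodenum/jejunum, Slc2a5 (GLUT5, for fructose) at 2.11 ± 0.827 TPM in colon and 163 ± 38.8 TPM in duodenum/jejunum and Slc2a7 at 0.0324 ± 0.0635 TPM in colon and 56.6 ± 13.8 TPM in duodenum/jejunum.

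Peptidases and amino acid carriers followed, with 22 of 26 lower, 3 higher and a median of -3.96. Tmprss15, enteropeptidase, which activates trypsinogen in the duodenum, averaged 0.079 ± 0.0852 TPM in colon and 47.2 ± 19.4 TPM in duodenum/jejunum. Among the membrane peptidases, Anpep (aminopeptidase N) was at 14.5 ± 2.27 TPM in colon and 2561 ± 508 TPM in duodenum/jejunum and Mme (neprilysin) at 1.98 ± 0.53 TPM in colon and 668 ± 101 TPM in duodenum/jejunum. Slc6a19, a carrier of neutral amino acids, was at 3.701 ± 1.62 TPM in colon and 453 ± 65.1 TPM in duodenum/jejunum. Dpp4, dipeptidyl peptidase 4, differed less, at 32.2 ± 3.85 TPM in colon and 427 ± 92.1 TPM in duodenum/jejunum. The exceptions were carriers: Slc6a14 is given above, and Slc1a5, a glutamine carrier, averaged 98.7 ± 3.46 TPM in colon and 22.2 ± 2.59 TPM in duodenum/jejunum (difference 2.11). Mep1a, a meprin subunit, was higher as deposited (0.53, adjusted p = 0.0194) and not called with RLE factors (0.16, adjusted p = 0.547), while its partner Mep1b was lower (-2.83).

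Vitamin and mineral genes were mostly lower in colon, with some of the largest spreads between duodenum/jejunum libraries. Of 20 vitamin and retinoid genes tested, 16 were lower and 2 higher. Rbp2, the cellular retinol-binding protein of enterocytes, averaged 40.3 ± 6.05 TPM in colon and 3668 ± 599 TPM in duodenum/jejunum, and Slc46a1, the proton-coupled folate carrier, 14.8 ± 2.12 TPM in colon and 162 ± 33.2 TPM in duodenum/jejunum. Cubn, cubilin, of the vitamin B12 receptor, was at 1.897 ± 0.784 TPM in colon and 198 ± 31.4 TPM in duodenum/jejunum. Slc5a6, the carrier of biotin and pantothenate, which colonic bacteria also make, was higher, at 26.6 ± 4.09 TPM in colon and 10.4 ± 1.45 TPM in duodenum/jejunum (difference 1.26). Of 15 iron, calcium and zinc genes tested, 7 were lower and 3 higher, and none of the 3 was called with RLE factors. S100g, the calcium carrier calbindin-D9k, had 76.2, 293 and 451 TPM in colon against 102, 1636 and 2719 TPM in duodenum/jejunum, and the tissues overlapped only through mouse 5, since the other 5 duodenum/jejunum libraries were at 632 TPM or more. Its difference was -2.11 with all mice and -2.44 without mouse 5. Cybrd1, the duodenal ferric reductase, was also lowest there (1.94 TPM), at 1.93 ± 0.176 TPM in colon and 10.3 ± 5.59 TPM in duodenum/jejunum. Slc40a1, ferroportin, the iron exporter, was at 164 ± 20.3 TPM in colon and 93.04 ± 49.8 TPM in duodenum/jejunum, 15.6 TPM in mouse 5. Its difference was 1.09 (adjusted p = 0.0239), 0.65 without mouse 5 (adjusted p = 0.021) and 0.72 with RLE factors (adjusted p = 0.118).

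The brush border itself was lower in colon. Of 14 structural and phosphatase genes, 13 were lower, with a median of -1.24. Vil1, villin, which bundles actin in microvilli, averaged 316 ± 20.7 TPM in colon and 1084 ± 128 TPM in duodenum/jejunum, and Pls1, a second bundling protein, 165 ± 12.1 TPM in colon and 765 ± 53.5 TPM in duodenum/jejunum. The intestinal alkaline phosphatases differed far more. Alpi was at 12.3 ± 3.33 TPM in colon and 717 ± 228 TPM in duodenum/jejunum, and Akp3, the duodenal form, had 0.332, 0.633 and 3.09 TPM in colon against 53.8, 693 and 1686 TPM in duodenum/jejunum, lowest in mouse 5. Alpl, the tissue-nonspecific form, was the only higher member, at 4.69 ± 1.54 TPM in colon and 1.31 ± 0.709 TPM in duodenum/jejunum.

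Bile acid genes did not move as a block. Slc10a2, the apical sodium-dependent bile acid carrier, was higher, at 40.4 ± 10.4 TPM in colon and 5.08 ± 2.19 TPM in duodenum/jejunum, with 153 ± 47.9 TPM in the ileum of the same mice. The basolateral exporter was lower, with Slc51a at 35.3 ± 11.8 TPM in colon and 120.5 ± 10.1 TPM in duodenum/jejunum and Slc51b at 42.9 ± 7.83 TPM in colon and 91.2 ± 18.4 TPM in duodenum/jejunum. Abcc2, an apical conjugate pump, averaged 0.819 ± 0.289 TPM in colon and 159.6 ± 39.5 TPM in duodenum/jejunum, whereas the basolateral pump Abcc3 averaged 113 ± 13.4 TPM in colon and 40.2 ± 11.98 TPM in duodenum/jejunum. Fabp6 was at 13.5 ± 5.47 TPM in colon and 22.7 ± 36.8 TPM in duodenum/jejunum, against 6762 ± 2205 TPM in ileum. Its duodenum/jejunum mean was raised by mouse 5 (95.97 TPM) and mouse 3 (24.04 TPM), with 2.99 to 5.44 TPM in the remaining mice. The difference was 0.35 and not called (adjusted p = 0.597).

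**Figure D3:**
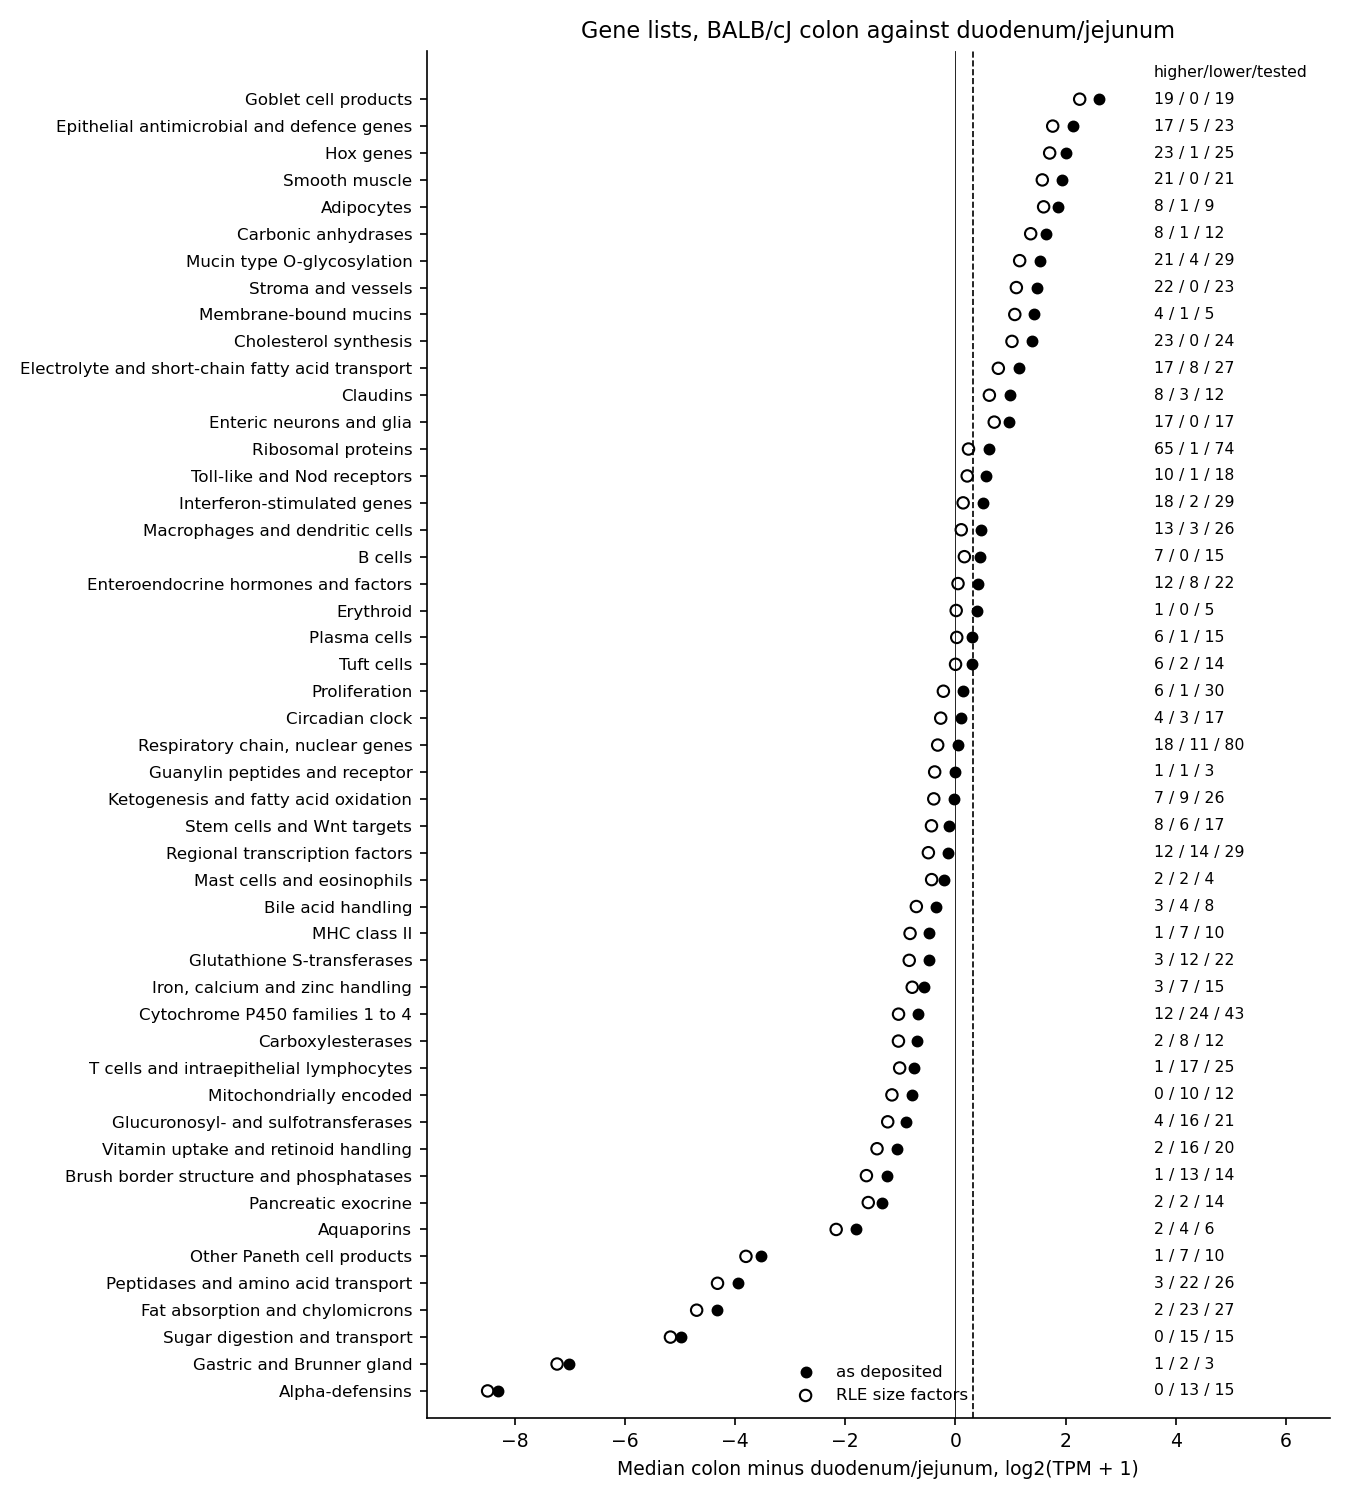
Median difference between colon and duodenum/jejunum (log2(TPM + 1), horizontal axis) of the tested members of each gene list, filled circles as deposited and open circles with RLE size factors. The numbers at the right are the members called higher and lower in colon and the members tested, and the dashed line is the median of all genes tested, 0.32.

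Genes of salt and water recovery were more often higher than lower in colon. Of 27 tested for electrolytes and short-chain fatty acids, 17 were higher and 8 lower, with a median of 1.15. Of all genes, 50.3% were higher and 15.2% lower. With RLE factors 17 were higher and 10 lower, against 29.2% and 29.5% of all genes. Of the 27, 3 passed the filter through colon alone, Scnn1b and Scnn1g among them, so the filter set their direction. The epithelial sodium channel of the distal gut showed all 3 subunits: Scnn1a averaged 32.4 ± 5.48 TPM in colon and 3.03 ± 1.11 TPM in duodenum/jejunum, Scnn1b 9.297 ± 1.11 TPM in colon and 0.154 ± 0.128 TPM in duodenum/jejunum, and Scnn1g 3.08 ± 0.773 TPM in colon and 0.0134 ± 0.0171 TPM in duodenum/jejunum. Hsd11b2, which keeps glucocorticoids off the mineralocorticoid receptor that drives this channel, was at 139 ± 16.4 TPM in colon and 2.91 ± 0.742 TPM in duodenum/jejunum. The anion exchangers were split by region. Slc26a3, the colonic chloride-bicarbonate exchanger, had 576, 622 and 750.1 TPM in colon against 114, 138 and 163 TPM in duodenum/jejunum. Slc26a6, its relative of the proximal gut, had 2.55, 3.56 and 5.21 TPM in colon against 257, 333 and 359 TPM in duodenum/jejunum. Slc5a8, a sodium-coupled carrier of butyrate, was at 130.3 ± 12.8 TPM in colon and 11.7 ± 1.89 TPM in duodenum/jejunum, and Best2, a goblet cell bicarbonate channel, at 28.3 ± 4.497 TPM in colon and 0.242 ± 0.108 TPM in duodenum/jejunum. The sodium pump subunit gene Atp1b1 was lower in colon, with a difference of -0.64. Clca4b, of the calcium-activated chloride channel regulator family, was at 5.28 ± 2.43 TPM in colon and 942 ± 198 TPM in duodenum/jejunum.

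The carbonic anhydrases and aquaporins each changed their leading member. Of 12 carbonic anhydrases tested, 8 were higher in colon and 1, Car13, was lower (17.7 ± 1.17 TPM in colon, 48.6 ± 9.898 TPM in duodenum/jejunum). After Car1, the highest in colon were Car4, a membrane-anchored form, at 746 ± 116 TPM in colon and 106 ± 10.6 TPM in duodenum/jejunum, and the cytosolic Car2 at 566 ± 19.2 TPM in colon and 24.9 ± 9.13 TPM in duodenum/jejunum. Car3, which adipocytes express, was at 78.8 ± 43.2 TPM in colon and 7.496 ± 6.71 TPM in duodenum/jejunum and adipocyte genes, given below, were higher in the same libraries. Of 6 aquaporins tested, Aqp8 and Aqp4 were higher and Aqp1, Aqp3, Aqp7 and Aqp11 lower. Aqp8, an apical water and ammonia channel, averaged 461 ± 56.3 TPM in colon and 2.77 ± 0.854 TPM in duodenum/jejunum, and the basolateral Aqp4 150.3 ± 9.97 TPM in colon and 8.397 ± 1.57 TPM in duodenum/jejunum. Aqp3, which also carries glycerol, was at 1.04 ± 0.278 TPM in colon and 30.8 ± 7.84 TPM in duodenum/jejunum. The claudins of the tight junction were 8 of 12 higher and 3 lower, against 50.3% and 15.2% of all genes. Of the 12, 3 passed the filter through colon alone. Cldn8, a sealing claudin of the distal colon, was at 43.3 ± 5.03 TPM in colon and 0.684 ± 0.195 TPM in duodenum/jejunum, and Cldn15, which forms a sodium pore in the small intestine, at 113 ± 7.59 TPM in colon and 419 ± 36.1 TPM in duodenum/jejunum. Cldn7, the most abundant, averaged 579 ± 39.3 TPM in colon and 599.8 ± 72.99 TPM in duodenum/jejunum and was not called (-0.044, adjusted p = 0.71), but was lower with RLE factors (-0.42, adjusted p = 0.0133).

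**Figure D4:**
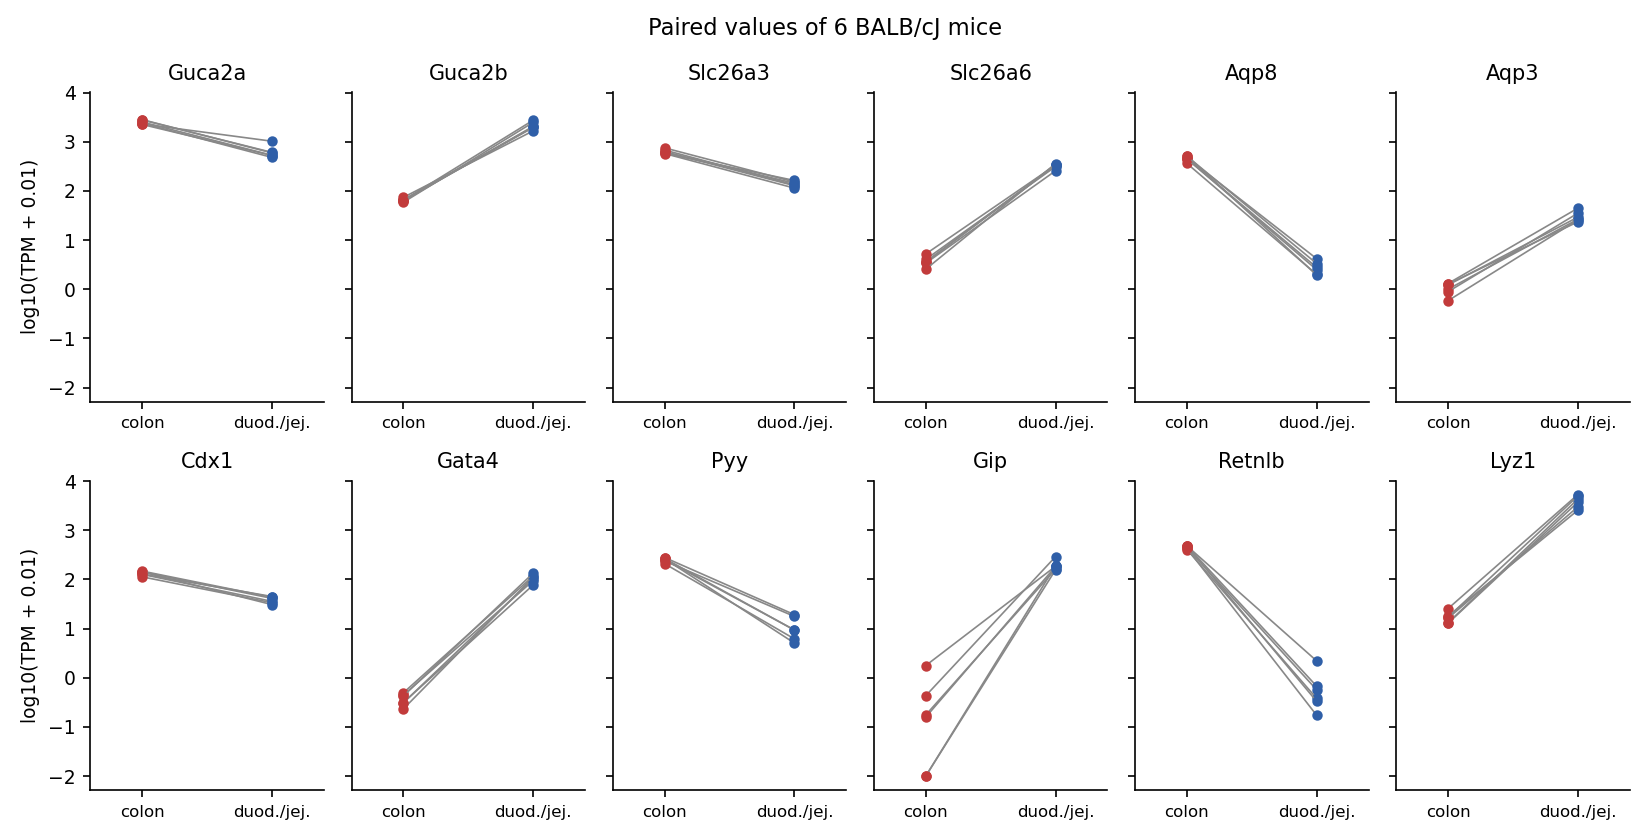
TPM (log10 of TPM + 0.01, vertical axis) of 12 genes in each mouse, colon at the left and duodenum/jejunum at the right of every panel, with a line for each of the 6 mice. Pairs of genes with opposite differences stand side by side: Guca2a and Guca2b, Slc26a3 and Slc26a6, Aqp8 and Aqp3, Cdx1 and Gata4, Pyy and Gip, Retnlb and Lyz1.

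Goblet cell products were higher in colon, 19 of 19 tested, with a median of 2.61, and 16 of them also with RLE factors. Muc2, the gel-forming mucin, had 4684, 8462 and 11816 TPM in colon against 635, 975 and 1057 TPM in duodenum/jejunum. Clca1, a protease that processes it, averaged 3350.3 ± 445 TPM in colon and 412 ± 42.3 TPM in duodenum/jejunum, and Agr2, the disulfide isomerase needed to fold it, 2211 ± 230.4 TPM in colon and 329 ± 56.97 TPM in duodenum/jejunum. Retnlb, the goblet cell resistin-like peptide, had the largest difference of the list, 8.14 (SE 0.16, adjusted p = 3.71e-10), at 454 ± 32.4 TPM in colon and 0.71 ± 0.746 TPM in duodenum/jejunum. Klk1, a kallikrein, was at 2604 ± 162 TPM in colon and 99.01 ± 25.8 TPM in duodenum/jejunum. By contrast Fcgbp, Tff3 and Spink4, which goblet cells of the whole gut make, differed by 0.37, 0.32 and 0.63 as deposited, and were not called with RLE factors (-0.0076, -0.051 and 0.26).

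The enzymes that build mucin glycans shifted with the mucins. Of 29 tested, 21 were higher and 4 lower in colon, with a median of 1.53. B3gnt6, which makes the core 3 structure of colonic mucin, averaged 15.04 ± 1.44 TPM in colon and 0.509 ± 0.171 TPM in duodenum/jejunum. C1galt1, which makes core 1, was at 98.1 ± 9.697 TPM in colon and 22.6 ± 4.06 TPM in duodenum/jejunum. The largest differences lay in terminal steps. St6galnac6, a sialyltransferase, was at 449 ± 24.04 TPM in colon and 4.25 ± 1.66 TPM in duodenum/jejunum (difference 6.49), and Fut2, which adds the secretor fucose, at 104 ± 7.76 TPM in colon and 2.096 ± 0.929 TPM in duodenum/jejunum (5.14). Chst4, a sulfotransferase, was at 81.8 ± 3.37 TPM in colon and 9.63 ± 1.55 TPM in duodenum/jejunum. Gcnt4, a branching enzyme, went the other way, at 2.77 ± 0.684 TPM in colon and 25.7 ± 3.904 TPM in duodenum/jejunum. Among membrane-bound mucins, Muc1, Muc3 and Muc4 were higher in colon, by 2.35, 1.09 and 2.78, and Muc13 was lower by a small amount (-0.32).

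Paneth cell products were the mirror image. The 22 alpha-defensin genes in the tables, cryptdins stored in Paneth granules, summed to 81.4 ± 46.4 TPM in colon and 37047 ± 13310 TPM in duodenum/jejunum. The sum was lower in colon in 6 of 6 mice (log2 difference -8.95, exact permutation p = 0.0312, adjusted over the sums 0.0625). Of 15 tested, 13 were lower and none higher. Defa31, Defa24 and Defa17 led in duodenum/jejunum. Defa31 was at 16.3 ± 15.1 TPM in colon and 10373 ± 4494 TPM in duodenum/jejunum, Defa24 at 17.1 ± 10.1 TPM in colon and 8836 ± 2899 TPM in duodenum/jejunum and Defa17 at 10.8 ± 7.43 TPM in colon and 4943 ± 1796 TPM in duodenum/jejunum. These genes are near-identical copies that share reads, so the split among them is uncertain and the sum is the safer value. Lyz1, Paneth lysozyme, had 12.8, 16.7 and 25.5 TPM in colon against 2553, 4009.8 and 5316 TPM in duodenum/jejunum. Mmp7, which cleaves the pro-defensins, was at 10.6 ± 4.28 TPM in colon and 142 ± 48.6 TPM in duodenum/jejunum, Itln1, intelectin, at 32.9 ± 10.97 TPM in colon and 1285 ± 511 TPM in duodenum/jejunum, and Pla2g2a, a bactericidal phospholipase that is functional in BALB/cJ, at 106 ± 16.4 TPM in colon and 1387 ± 386 TPM in duodenum/jejunum. Nupr1, a stress-response gene and the only listed Paneth gene higher in colon, was at 624 ± 172 TPM in colon and 48.1 ± 17.6 TPM in duodenum/jejunum.

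Other epithelial defence genes mostly rose in colon, 17 of 23 tested, with a median of 2.14. Lypd8, which binds flagella and keeps bacteria off the mucosa, averaged 6531 ± 543 TPM in colon and 1206 ± 207 TPM in duodenum/jejunum, and Zg16, a lectin that aggregates Gram-positive bacteria, 11692 ± 1108 TPM in colon and 5075 ± 943 TPM in duodenum/jejunum. Mptx1, a mucosal pentraxin, was at 548 ± 142 TPM in colon and 74.1 ± 26.4 TPM in duodenum/jejunum, and the small proline-rich genes Sprr2a2 and Sprr2a3 were also higher, by 4.93 and 5.02, though as near-identical copies they share reads. The Reg lectins were split. The bactericidal lectins were lower, with Reg3b at 395 ± 195 TPM in colon and 2657 ± 1894 TPM in duodenum/jejunum and Reg3g at 119.7 ± 38.3 TPM in colon and 1014 ± 431 TPM in duodenum/jejunum. Reg1, which is also made by pancreatic acinar cells, was at 7.93 ± 8.24 TPM in colon and 1488 ± 489 TPM in duodenum/jejunum. Reg4 was higher, at 518 ± 59.1 TPM in colon and 117 ± 18.1 TPM in duodenum/jejunum. Of 18 Toll-like and Nod receptor genes, 10 were higher and 1 lower, a share of higher calls near that of all genes (50.3%), and 8 and 2 with RLE factors. Tlr2, a receptor for bacterial lipoprotein, was at 18.5 ± 2.85 TPM in colon and 1.34 ± 0.403 TPM in duodenum/jejunum, and Tlr4, for lipopolysaccharide, at 36.03 ± 2.29 TPM in colon and 3.89 ± 1.08 TPM in duodenum/jejunum.

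The hormones separated by the cell that makes them. Of 22 enteroendocrine genes tested, 12 were higher and 8 lower, against 50.3% and 15.2% of all genes. The L-cell products were higher in colon. Insl5 had 152, 199 and 237 TPM in colon against 0, 0.081 and 0.41 TPM in duodenum/jejunum, the largest difference of the list (7.44). It passed the filter through colon alone, so the filter set its direction and its call adds nothing to these values. Pyy, peptide YY, averaged 251 ± 25.2 TPM in colon and 11.1 ± 5.93 TPM in duodenum/jejunum, and Gcg, the precursor of GLP-1, 145 ± 17.1 TPM in colon and 28.6 ± 7.398 TPM in duodenum/jejunum. The proximal hormones were lower in colon. Gip, the incretin of K cells, averaged 0.416 ± 0.676 TPM in colon and 195 ± 48.9 TPM in duodenum/jejunum, and Cck, cholecystokinin, 3.61 ± 1.36 TPM in colon and 45.4 ± 8.55 TPM in duodenum/jejunum. Ghrl, ghrelin, was at 7.84 ± 3.95 TPM in colon and 51.97 ± 17.9 TPM in duodenum/jejunum, Sct, secretin, at 17.4 ± 2.61 TPM in colon and 48.4 ± 12.01 TPM in duodenum/jejunum and Sst, somatostatin, at 18.3 ± 1.93 TPM in colon and 48.7 ± 6.903 TPM in duodenum/jejunum. Tph1, which makes serotonin in enterochromaffin cells, was higher, at 24.8 ± 3.398 TPM in colon and 9.67 ± 2.33 TPM in duodenum/jejunum.

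The guanylin peptides exchanged places, and their receptor was not called. Guca2a, guanylin, had 2244, 2448 and 2812 TPM in colon against 479, 561 and 1024 TPM in duodenum/jejunum. Guca2b, uroguanylin, had 58.95, 64.6 and 74.1 TPM in colon against 1670, 2029.9 and 2752 TPM in duodenum/jejunum. Neither overlapped between tissues, and the differences were 2.04 (SE 0.15, adjusted p = 1.65e-06) and -5.01 (SE 0.12, adjusted p = 9.39e-10). Both genes lie on chromosome 4, Guca2a at 119637704 to 119639471 and Guca2b at 119656607 to 119658954 (GRCm38). Gucy2c, the guanylate cyclase that both activate to drive chloride and fluid secretion, averaged 143 ± 10.2 TPM in colon and 144 ± 17.99 TPM in duodenum/jejunum and was not called (-0.0048, adjusted p = 0.96), but was lower with RLE factors (-0.38, adjusted p = 0.00578).

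Stem cell genes did not move together. Of 17 tested, 8 were higher, 6 lower and 3 not called as deposited, and 7 higher and 9 lower with RLE factors. Olfm4, a secreted glycoprotein that marks crypt-base stem cells of the small intestine, averaged 0.638 ± 0.364 TPM in colon and 336 ± 46.8 TPM in duodenum/jejunum (difference -7.699). Lgr5, the receptor that marks the same cells in both organs, averaged 5.34 ± 1.63 TPM in colon and 5.83 ± 1.43 TPM in duodenum/jejunum and was not called (-0.12, adjusted p = 0.512), but was lower with RLE factors (-0.43, adjusted p = 0.0288). Prom1 and Lrig1 were higher in colon, by 2.46 and 1.43, and Sp5, a Wnt target, was lower, at 0.0831 ± 0.0413 TPM in colon and 3.59 ± 1.33 TPM in duodenum/jejunum. Sp5 passed the filter through duodenum/jejunum alone, so the filter set its direction. Tuft cell genes were 6 of 14 higher and 2 lower as deposited, and 3 higher and 4 lower with RLE factors. Gnat3, the taste receptor G protein gustducin, was low in both tissues, at 1.66 ± 0.227 TPM in colon and 0.0929 ± 0.0547 TPM in duodenum/jejunum. It was the 1 tuft gene that passed the filter through colon alone, so the filter set its direction. The tuft kinase gene Dclk1 was at 12.7 ± 2.02 TPM in colon and 4.45 ± 1.87 TPM in duodenum/jejunum. Of 30 proliferation genes, 23 were not called as deposited, and the balance of the rest depended on scaling, 6 higher and 1 lower as deposited and 2 and 10 with RLE factors. Mki67 averaged 50.3 ± 11.1 TPM in colon and 44.96 ± 12.4 TPM in duodenum/jejunum.

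Genes of the gut wall were higher in colon. All 21 smooth muscle genes were higher, with a median of 1.94, and their summed level ranged from 5867 to 8132 TPM in colon and from 932 to 2137 TPM in duodenum/jejunum. Actg2, enteric smooth muscle actin, averaged 814 ± 158 TPM in colon and 93.1 ± 38.2 TPM in duodenum/jejunum, and Myh11, smooth muscle myosin, 364 ± 46.1 TPM in colon and 80.5 ± 34.7 TPM in duodenum/jejunum. All 17 tested neuron and glia genes were also higher, with a median of 0.98, such as Nos1 of inhibitory motor neurons at 4.27 ± 1.16 TPM in colon and 0.653 ± 0.298 TPM in duodenum/jejunum and Uchl1 of neurons at large at 9.17 ± 1.96 TPM in colon and 3.09 ± 1.12 TPM in duodenum/jejunum. Of 23 stromal and vessel genes 22 were higher, with a median of 1.48, with Col3a1 at 1116 ± 207 TPM in colon and 189 ± 34.9 TPM in duodenum/jejunum and Postn, periostin, at 205 ± 48.2 TPM in colon and 13.3 ± 3.69 TPM in duodenum/jejunum. Kit, which marks interstitial pacemaker cells as well as mast cells, was at 64.3 ± 9.66 TPM in colon and 9.33 ± 2.34 TPM in duodenum/jejunum. Of 9 adipocyte genes tested 8 were higher. The exception was Cidec, a lipid droplet protein that was lower at 28.9 ± 14.95 TPM in colon and 145 ± 36.7 TPM in duodenum/jejunum. The sum of the 10 listed adipocyte genes, Cidec included, ranged from 181 to 490.4 TPM in colon and from 152 to 294 TPM in duodenum/jejunum. Cidec made up a large part of that sum in duodenum/jejunum, so the overlap does not describe the other members. Fabp4 ranged from 42.4 to 107 TPM in colon and from 16.6 to 25.01 TPM in duodenum/jejunum. Adiponectin (Adipoq) averaged 17.2 ± 7.61 TPM in colon and 1.47 ± 1.45 TPM in duodenum/jejunum. The part that the amount of muscle and fat in a sample plays in the other gene groups was not tested.

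Immune genes gave a mixed picture. Genes of T cells and intraepithelial lymphocytes were lower in colon, 17 of 25 tested, with 1 higher, Cd2 (0.99), and a median of -0.75. Cd8a had 1.17, 1.41 and 1.88 TPM in colon against 6.304, 8.32 and 11.5 TPM in duodenum/jejunum. The chemokine gene Ccl5, made by cytotoxic lymphocytes, was at 4.18 ± 1.21 TPM in colon and 36.6 ± 18.2 TPM in duodenum/jejunum. The 17 include 4 butyrophilin-like genes of the epithelium itself, a family that maintains gamma-delta intraepithelial lymphocytes in the mouse, and so are not all genes of lymphocytes. Btnl1 was at 24.3 ± 5.15 TPM in colon and 165 ± 22.5 TPM in duodenum/jejunum and Btnl6 at 9.29 ± 1.396 TPM in colon and 30.05 ± 5.999 TPM in duodenum/jejunum. Of 10 MHC class II genes 7 were lower, with Cd74, the invariant chain, at 385 ± 67.5 TPM in colon and 642 ± 94.1 TPM in duodenum/jejunum. B-cell genes were 7 of 15 higher as deposited and 2 with RLE factors, and none was lower in either. Of all genes, 50.3% were higher as deposited and 29.2% with RLE factors, so this is no excess of higher calls. Plasma cell genes were 6 of 15 higher and 1 lower as deposited, and 3 higher and 4 lower with RLE factors. Igha, the constant region of immunoglobulin A, averaged 1364 ± 565 TPM in colon and 1774 ± 755 TPM in duodenum/jejunum and was not called (-0.37, adjusted p = 0.11), but was lower with RLE factors (-0.75, adjusted p = 0.0113). The immunoglobulin constant genes summed to 3921 ± 1944 TPM in colon and 3839 ± 2014 TPM in duodenum/jejunum and were higher in colon in 3 of 6 mice (exact permutation p = 0.969). Macrophage genes were 13 higher and 3 lower of 26, close to the shares of all genes (50.3% and 15.2%), and 10 and 6 with RLE factors. Mrc1, the mannose receptor, was at 19.4 ± 6.26 TPM in colon and 4.198 ± 0.914 TPM in duodenum/jejunum and Lyz2, macrophage lysozyme, at 308 ± 66.7 TPM in colon and 105 ± 29.6 TPM in duodenum/jejunum. The mucosal mast cell proteases Mcpt1 and Mcpt2 were lower, with differences of -2.67 and -2.08. Cma1, a protease of connective tissue mast cells, was higher, at 4.05 ± 1.002 TPM in colon and 0.586 ± 0.142 TPM in duodenum/jejunum. Of 29 interferon-stimulated genes 18 were higher and 2 lower as deposited, and 10 and 6 with RLE factors. The shares of all genes were 50.3% and 15.2% as deposited and 29.2% and 29.5% with RLE factors.

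Cholesterol synthesis was higher in colon as a group. Of 24 genes 23 were higher and none lower as deposited, with a median of 1.398, and 22 were higher and 1 lower with RLE factors. Sqle, squalene epoxidase, was at 75.7 ± 9.19 TPM in colon and 15.99 ± 1.797 TPM in duodenum/jejunum, Cyp51, lanosterol demethylase, at 97.6 ± 13.6 TPM in colon and 16.5 ± 2.09 TPM in duodenum/jejunum, and Fdps, farnesyl diphosphate synthase, at 207 ± 24.9 TPM in colon and 40.3 ± 3.62 TPM in duodenum/jejunum. All 3 were free of overlap between the tissues.

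Genes of ketone body and fatty acid metabolism were split. Of 26, 7 were higher and 9 lower as deposited, and 5 and 15 with RLE factors. Acads, the short-chain acyl-CoA dehydrogenase, which handles butyrate, was at 146 ± 2.49 TPM in colon and 47.3 ± 6.01 TPM in duodenum/jejunum, and Oxct1, which uses ketone bodies, at 226 ± 19.01 TPM in colon and 79.3 ± 9.703 TPM in duodenum/jejunum. The peroxisomal oxidation genes Acaa1a, Acaa1b and Ehhadh were all lower, with differences of -1.55, -2.19 and -1.71, as was Cyp4a10, a fatty acid omega-hydroxylase, at 0.0617 ± 0.0764 TPM in colon and 11.7 ± 2.85 TPM in duodenum/jejunum.

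Xenobiotic enzymes were lower in colon on balance, but each family had colonic members. Of 43 P450 genes 24 were lower and 12 higher. Of the 43, 6 passed the filter through colon alone, Cyp2d34 among them, and 6 through duodenum/jejunum alone, Cyp2b10 among them. The filter set their direction, so the counts are in part set by it. Cyp3a11, the main drug-metabolizing form in mouse, averaged 0.818 ± 0.732 TPM in colon and 590.4 ± 288 TPM in duodenum/jejunum, and Cyp2b10 0.329 ± 0.303 TPM in colon and 217 ± 75.5 TPM in duodenum/jejunum. Cyp2c55, an arachidonic acid hydroxylase, went the other way, at 682 ± 168 TPM in colon and 14.98 ± 12.6 TPM in duodenum/jejunum, as did Cyp2d34, at 166 ± 19.2 TPM in colon and 0.28 ± 0.279 TPM in duodenum/jejunum. The Cyp2d and Cyp3a genes have close copies, so the share of each is uncertain. Of 21 glucuronosyl- and sulfotransferases 16 were lower, led by Ugt2a3 at 0.106 ± 0.0602 TPM in colon and 123 ± 30.6 TPM in duodenum/jejunum, and 4 higher, led by Sult1a1, a phenol sulfotransferase, at 342 ± 19.4 TPM in colon and 7.6 ± 1.78 TPM in duodenum/jejunum. Of the 21, 4 passed the filter through duodenum/jejunum alone, Ugt2a3 among them, and 1 through colon alone, so the filter set their direction. Glutathione S-transferases were 12 lower and 3 higher of 22, and carboxylesterases 8 lower and 2 higher of 12, with Ces2e at 112 ± 7.19 TPM in colon and 779.9 ± 179 TPM in duodenum/jejunum and Ces1d at 32.5 ± 6.14 TPM in colon and 7.47 ± 3.33 TPM in duodenum/jejunum.

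Mitochondrially encoded transcripts took less of the colon libraries and ribosomal protein transcripts more. The mitochondrial genes summed to 41252 ± 3802 TPM in colon and 52390 ± 2661 TPM in duodenum/jejunum, lower in 6 of 6 mice, and the ribosomal protein genes to 90329 ± 5649.9 TPM in colon and 61747 ± 7938 TPM in duodenum/jejunum, higher in 6 of 6 (exact permutation p = 0.0312 for both, adjusted over the sums 0.0625). With RLE factors the log2 difference of the ribosomal sum was 0.18 (adjusted p = 0.15 by the same exact permutation test) against 0.56 as deposited, and that of the mitochondrial sum -0.72 against -0.35. Of 12 mitochondrially encoded genes 10 were lower as deposited and 11 with RLE factors. Of 74 ribosomal protein genes 65 were higher as deposited and 28 with RLE factors. The nuclear genes of the respiratory chain changed sign with the scaling, 18 higher and 11 lower as deposited and 3 and 50 with RLE factors, so no direction is given for them. The same holds for the clock genes, 4 higher and 3 lower as deposited and 3 and 9 with RLE factors.

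The ileum of the same 6 mice, which entered no test here, lay nearer to duodenum/jejunum for most of these genes. On the log2(TPM + 1) scale its mean was nearer to duodenum/jejunum for 1673 of the 2295 genes called 2-fold higher in colon (72.9%) and for 720 of the 955 called 2-fold lower (75.4%). Olfm4 was at 343 ± 28.96 TPM in ileum and Lyz1 at 4035 ± 479.6 TPM, close to their duodenum/jejunum levels, whereas Fabp1 was at 621 ± 378 TPM and Gata4 at 34.5 ± 12.7 TPM. Among colonic genes, Insl5 was at 0.499 ± 0.388 TPM in ileum and Cdx1 at 70.05 ± 4.58 TPM.

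The same difference was measured in C57BL/6J, the other inbred strain of the study, to see which regional differences depend on strain. The test compared colon minus duodenum/jejunum within each mouse between 6 BALB/cJ and 7 C57BL/6J mice (limma on the per-mouse differences), and 1191 of 15671 genes were called (7.6%), 835 with a more positive difference in BALB/cJ and 356 with a more negative one. With RLE factors 1346 genes were called and with a pseudocount of 0.1 TPM 1064. The split by direction was counted only as deposited. C57BL/6J means are over 7 mice. C57BL/6J mouse 2 had 6111 TPM of Fabp6 in the library labelled duodenum/jejunum and 22.1 TPM in the library labelled ileum, against 3.12 to 31.99 TPM and 3766 to 8189 TPM in the other 6, so these libraries go against their labels for Fabp6. Fabp1 also did, at 6947 TPM in the library labelled ileum against 65.99 to 515 TPM in the other 6. In the library labelled duodenum/jejunum Fabp1 was at 3207 TPM, against 3635 to 7576 TPM in the other 6. Gata4 was at 129 TPM in the library labelled ileum, against 18.9 to 46.8 TPM in the other 6. In the library labelled duodenum/jejunum Gata4 was at 64.5 TPM, against 81.5 to 116 TPM in the other 6. Pdx1 was at 6.46 TPM in the library labelled duodenum/jejunum, within the 1.06 to 13.3 TPM of the other 6, and at 2.55 TPM in the library labelled ileum, above the 0.0255 to 0.132 TPM of the others. Without that mouse 1199 genes were called (7.65%), 1055 of them in both fits, and the 16 genes with the smallest p-values, 8 in each direction, were called in both.

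In some gene families the reads were assigned to different members in the 2 strains. Mptx1 averaged 548 ± 142 TPM in BALB/cJ colon and 74.1 ± 26.4 TPM in BALB/cJ duodenum/jejunum, against 2832 ± 1325 and 3.12 ± 1.58 TPM in C57BL/6J. Mptx2, its Paneth cell paralogue, averaged 44.1 ± 9.64 TPM in BALB/cJ colon and 45.2 ± 16.4 TPM in BALB/cJ duodenum/jejunum, against 0.866 ± 0.364 and 398 ± 161 TPM in C57BL/6J. The strain differences were -6.48 and 7.695 (adjusted p = 1.29e-10 and 2.02e-09), and -6.502 and 7.71 without C57BL/6J mouse 2. Together the pair gave 592 ± 151 TPM in BALB/cJ colon and 119 ± 39.4 TPM in BALB/cJ duodenum/jejunum, against 2833 ± 1325 and 402 ± 161 TPM in C57BL/6J. Nxpe5, of a family of mucosal proteins, averaged 136 ± 12.1 TPM in BALB/cJ colon and 0.847 ± 0.19 TPM in BALB/cJ duodenum/jejunum, against 1.52 ± 0.411 and 0.937 ± 0.178 TPM in C57BL/6J. Its relative Nxpe4 was low in BALB/cJ and reached 48.5 ± 9.68 TPM in C57BL/6J colon against 1.78 ± 0.27 TPM in C57BL/6J duodenum/jejunum. Among the defensins, Defa27 was at 4362 ± 1560.5 TPM in BALB/cJ duodenum/jejunum and at 3.397 ± 3.86 TPM in C57BL/6J, and Defa20 at 7.04 ± 1.83 TPM in BALB/cJ and 5338 ± 1852 TPM in C57BL/6J, with strain differences of -9.68 and 8.63, and -10.01 and 8.42 without C57BL/6J mouse 2. The 22 alpha-defensins together gave 37047 ± 13310 TPM in BALB/cJ duodenum/jejunum and 45562 ± 10967 TPM in C57BL/6J. Reads were assigned to transcripts of the GRCm38 genome, which comes from C57BL/6J, and the part that allelic sequence differences play in these copies was not tested.

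Genes outside these families differed too. Lpo averaged 336 ± 28.3 TPM in BALB/cJ colon and 13.7 ± 1.75 TPM in C57BL/6J colon, and stayed below 1 TPM on average in the duodenum/jejunum of both (strain difference 4.296, adjusted p = 1.28e-09, and 4.25 without C57BL/6J mouse 2). St3gal4, a sialyltransferase, ran in opposite directions: it averaged 23.5 ± 4.44 TPM in BALB/cJ colon and 6.63 ± 1.81 TPM in BALB/cJ duodenum/jejunum, against 230 ± 32.4 and 1163 ± 188 TPM in C57BL/6J (strain difference 4.03, and 4.01 without C57BL/6J mouse 2). Gbp2b, an interferon-induced guanylate-binding protein, averaged 34.2 ± 3.73 TPM in BALB/cJ colon and 11.9 ± 3.24 TPM in BALB/cJ duodenum/jejunum, against 1.17 ± 0.317 and 8.39 ± 2.64 TPM in C57BL/6J (3.56 and 3.603). Apob was at 3.72 ± 1.06 TPM in BALB/cJ colon and 41.7 ± 11.7 TPM in C57BL/6J colon, with 1348 ± 239 and 1132 ± 230.5 TPM in duodenum/jejunum in the same order (strain difference -3.41, adjusted p = 1.65e-06, and -3.35 without C57BL/6J mouse 2). The regional difference of Apob was thus -8.17 in BALB/cJ and -4.75 in C57BL/6J. Klk15, a kallikrein, was at 21.6 ± 4.64 TPM in BALB/cJ colon and 1.18 ± 0.454 TPM in C57BL/6J colon.

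**Figure D5:**
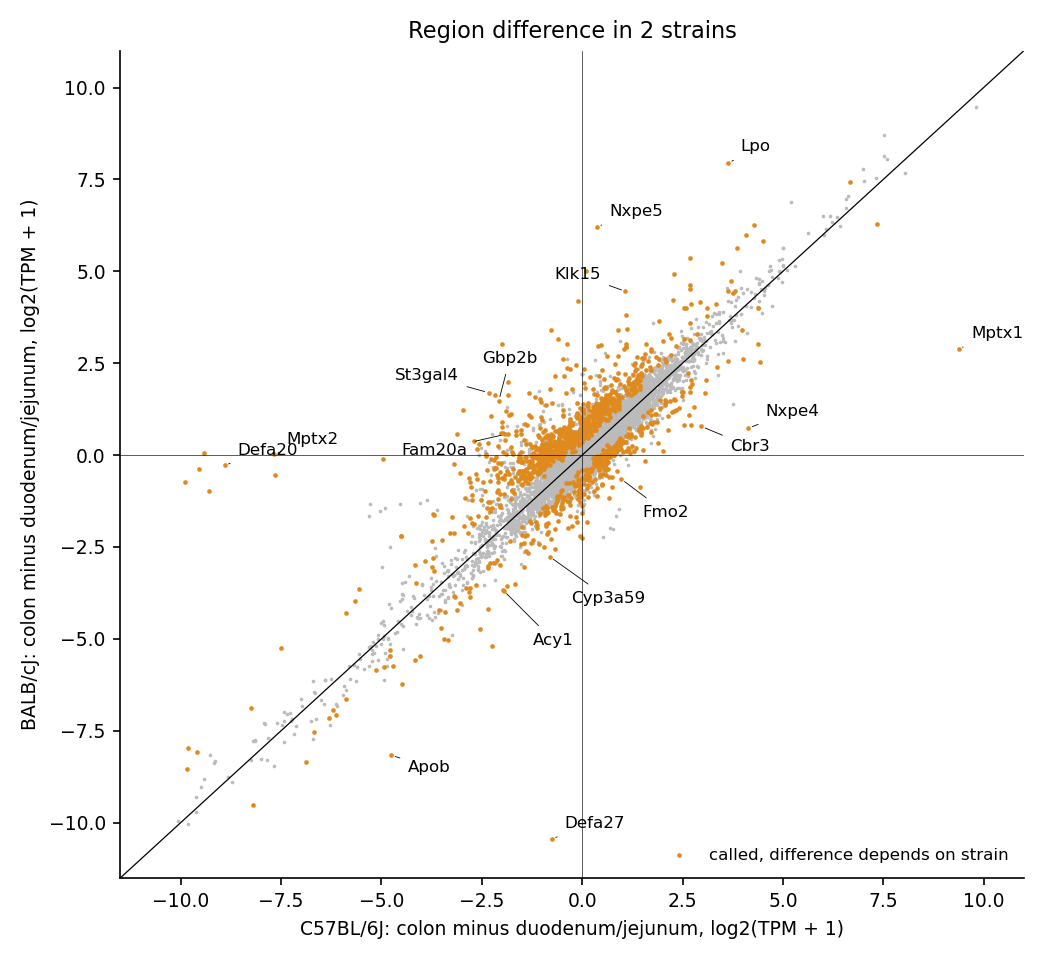
Colon minus duodenum/jejunum (log2(TPM + 1)) in BALB/cJ (vertical axis, mean of 6 mice) against the same in C57BL/6J (horizontal axis, mean of 7 mice) for the 15671 genes, with the 1191 genes whose difference depended on strain in orange and the 16 named genes labelled. Genes off the diagonal such as Mptx1, Mptx2, Nxpe5, Defa20 and Defa27 differ between regions in a strain-dependent way, and the solid line marks equal differences.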

How the data were processed

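The values were deposited by the authors as log2(TPM + 1) per named gene, 1 table per tissue. Total RNA was extracted with a PureLink kit, depleted of ribosomal RNA and made into TruSeq libraries, per the labels' protocols, and transcripts were quantified with kallisto 0.44.0 on GRCm38, per the submitters' processing notes. Without counts in the tables, sequencing depth could not be read from them, so neither counting intervals nor a count test were possible. The 26 entries per table whose names had turned into numbers were left out. No 2 libraries held identical values. Coordinates come from GENCODE M21, where 31787 symbols had 1 match, 43 had several and 2744 had none.

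Genes with 1 TPM or more in 6 or more of the 12 libraries were tested with limma 3.58.1 (R 4.3.3, trend) on log2(TPM + 1), with the mouse as a block, 2-sided, at a Benjamini-Hochberg adjusted p under 0.05 over all genes tested. The labels give both tissues the same mouse-id. The deviations of the 2 libraries of a mouse from their tissue means correlated across genes at 0.060 to 0.31, and for 3 of the 6 mice the colon library correlated more with another mouse, which is a description, since genes are not replicates. Both fits were tested on simulated data with 200 changed genes. Sums of TPM were tested by an exact permutation over sign changes, adjusted over 8 sums. Python 3.11.15, NumPy 2.4.6, pandas 2.3.3, SciPy 1.17.1 and Matplotlib 3.10.9 were used.

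The members, the 49 gene lists and the tests were chosen with earlier results of these data known. Genes were named by rule: the 12 called genes per direction with the largest difference, a mean of 5 TPM or more and no overlap, without predicted genes, pseudogenes, mitochondrial genes and antigen receptor segments; of each list, the first 6 members, the 6 highest tested members and the 6 called members with the largest difference per direction; any member of a small family; and 8 genes per direction with the smallest adjusted p between strains and a mean of 5 TPM or more in a group. The listed genes Acsl5, Atp12a, Muc17, Tnfrsf19, Blk, Gzma, Gzmb and Hmgcs1 were not analysed here. The alternatives were pseudocounts of 0.1 and 5 TPM, no filter, a filter of 5 TPM, RLE and upper quartile scaling, no block and each mouse left out.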

Additional observations from a re-analysis of the deposited data

Results flagged for a closer look

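Among the 6 libraries of a tissue, 19 of 325 groups of values had 1 library that stood apart, its gap to the nearest other library on the log2 scale being a large share of the whole range. Chance flags about 1 in 20 groups. In duodenum/jejunum, mouse 5 was apart for 6 values. It was low for Gkn3 (1.54 TPM), Tff2 (0 TPM), the gastric and Brunner gland sum (5.56 TPM, against 1362 to 4465 TPM in the other 5), Cybrd1 (1.94 TPM) and Sprr2a2 (6.81 TPM), and high for Guca2a (1024 TPM). Mouse 2 was low for Apoa1 (6665 TPM), Dgat2 (194 TPM) and Cldn15 (352 TPM), and high for Sqle (19.5 TPM) and the Hox sum (38.1 TPM). Mouse 1 was high for Gip (291 TPM). In colon, mouse 5 was low for Acads (141 TPM) and Slc51a (13.3 TPM), mouse 6 for Postn (116 TPM) and the ribosomal protein sum (79336 TPM), mouse 3 for Foxa2 (14.96 TPM) and mouse 1 for the gastric and Brunner gland sum (17.4 TPM). Mouse 4 was high for Scnn1b (11.5 TPM).

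The difference between colon and duodenum/jejunum itself differed between the strains, by limma's test of that interaction, for 16 named genes. The strain difference (BALB/cJ minus C57BL/6J, log2) was positive for Defa20 (8.63), Mptx2 (7.70), Nxpe5 (5.84), Lpo (4.30), St3gal4 (4.03), Gbp2b (3.56), Klk15 (3.38) and Fam20a (2.48). It was negative for Defa27 (-9.68), Mptx1 (-6.48), Apob (-3.41), Nxpe4 (-3.41), Cbr3 (-2.19), Cyp3a59 (-1.96), Acy1 (-1.73) and Fmo2 (-1.62). Fmo2, a flavin monooxygenase, was lower in colon in BALB/cJ (-0.65) and higher in C57BL/6J (0.97). Of the 1191 genes that differed between the strains, 402 had regional differences of opposite sign in BALB/cJ and C57BL/6J. That count asked only for opposite signs, not for a call or a minimum size in either strain. Genes with hardly any difference in a strain are thus included, such as Abhd14b (-0.028 in BALB/cJ, 0.66 in C57BL/6J). It is not a count of genes shown to reverse direction, and the share among all genes tested was not counted.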

How the results depend on the processing

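The counts depended on the scaling, the pseudocount and the filter. Genes called higher in colon numbered 4569 and genes called lower 4620 with RLE factors, and 3817 were lower with upper quartile scaling. The 2-fold calls higher in colon numbered 1444 with RLE factors and 1285 with a pseudocount of 5 TPM, which left 1974 2-fold calls in all. The other alternatives kept the number of called genes between 8302 (filter of 5 TPM) and 11046 (no filter). Leaving out 1 mouse at a time gave 9416 to 9987 called genes, 7157 to 7771 of them higher and 2135 to 2497 lower, and 3151 to 3368 2-fold calls, 2176 to 2408 higher and 940 to 977 lower. Without mice 3 and 5, a setting chosen after seeing the data, 9234 genes were called.

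Without the pairing by mouse, 10224 genes and 3227 2-fold differences were called, and none of the 190 called genes named in the text lost its call. For the sums, the exact test without the block passed 0.05 for alpha-defensins (-8.95), mitochondrially encoded genes (-0.35), ribosomal proteins (0.56), gastric and Brunner gland genes (-5.17) and Hox genes (3.91), whose adjusted p with the pairs was 0.0625, or 0.1 for the gastric sum. Without mouse 5 the gastric and Brunner gland sum differed by -6.68. The sum of immunoglobulin constant genes changed sign, at -0.32 with RLE factors, and ranged from -0.076 to 0.23 with 1 mouse left out, -0.074 without mouse 3. Of the 190 named genes called, 185 kept direction and call under every alternative, and Fcgbp, Mep1a, Slc40a1, Spink4 and Tff3 did not. With 1 mouse left out, calls were lost for Fcgbp without mouse 5 (0.26) or 6 (0.35), Mep1a without mouse 2 (0.39) or 6 (0.44), Slc40a1 without mouse 4 (0.997) and Tff3 without mouse 3 (0.298), 4 (0.301) or 6 (0.24), and Igha was called without mouse 6 (-0.498). Fabp6 was called without mice 3 and 5 (1.51). Of the numbers of list members called, 636 of 686 on the higher and 640 of 686 on the lower side stayed within 1.5 times over the alternatives. Signs turned for genes near 0: with RLE factors Fcgbp (-0.0076), Tff3 (-0.051), Hnf4a (-0.22), Mki67 (-0.19) and Mptx2 (-0.34), and with upper quartile scaling Hnf4a (-0.11), Mki67 (-0.080) and Mptx2 (-0.23). With 1 mouse left out at a time, Cldn7 ranged from -0.13 to 0.0061, Gucy2c from -0.048 to 0.027, Mptx2 from -0.19 to 0.1998 and Pnlip from -2.89 to 0.034. The cause was not tested. Without a count of reads, values near 0 TPM cannot be given a limit.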

Other observations

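Some genes outside the lists differed widely between the tissues, and were chosen after their values were seen. The first examples take part in the oxidation of sulfur compounds, and no list of that pathway was counted. Sqor, sulfide quinone oxidoreductase, averaged 438 ± 21.2 TPM in colon and 22.8 ± 3.69 TPM in duodenum/jejunum, Ethe1, persulfide dioxygenase, 349 ± 22.8 TPM in colon and 14.8 ± 1.57 TPM in duodenum/jejunum, and Tst, thiosulfate sulfurtransferase, 163 ± 5.87 TPM in colon and 5.03 ± 1.37 TPM in duodenum/jejunum. Selenbp1, which oxidizes methanethiol, was at 1042 ± 60.4 TPM in colon and 41.3 ± 5.25 TPM in duodenum/jejunum. In ileum the 4 averaged 48.2, 23.8, 13.7 and 56.97 TPM in the same order.

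Next are 3 gasdermin C genes, neighbours on chromosome 15 whose close similarity makes the split of reads uncertain. Gsdmc2 averaged 262 ± 66.2 TPM in colon and 3.18 ± 1.17 TPM in duodenum/jejunum, Gsdmc3 111 ± 32.4 TPM in colon and 0.419 ± 0.176 TPM in duodenum/jejunum, and Gsdmc4 121 ± 45.7 TPM in colon and 1.04 ± 0.388 TPM in duodenum/jejunum. Ly6g, best known as a surface antigen of neutrophils, had 95.2 to 158 TPM in the 6 colon libraries and 0 to 0.928 TPM in the 6 duodenum/jejunum libraries. Ccl25, the chemokine that draws lymphocytes to the small intestine, averaged 14.6 ± 2.11 TPM in colon and 871 ± 17.1 TPM in duodenum/jejunum, and its 6 duodenum/jejunum libraries lay within 853 to 894 TPM.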
